A study of Mus musculus with 7 samples.

Results

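The cytosolic ribosomal protein genes encode the proteins that, together with ribosomal RNA, form the large (Rpl and Rplp) and small (Rps) subunits of the ribosomes that translate nuclear-encoded mRNA. They were chosen by name alone: a symbol of the series Rpl, Rplp or Rps with its number, with or without the ending of a paralog such as Rpl3l, and with pseudogene names left out. The rule found 85 names. Rpl21 was dropped because the estimate for its locus had failed, which left 84 of the 50226 gene names with a usable locus. Of these, 81 reached at least 1 FPKM (fragments per kilobase of transcript, scaled to the mapped fragments of the library) in a tissue and were compared across tissues. Rpl10l, Rps12l1 and Rps4l stayed below 1 FPKM everywhere. The 81 genes were 74 parent genes, 44 of the large and 30 of the small subunit, and 7 of the 10 paralogs. Rpl6l, Rps12l1 and Rps4l, which the rule counts as paralogs, are processed pseudogenes in the GENCODE annotation, Rps4l a transcribed one.

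The study profiled 3 adipose tissues, namely visceral (VAT), subcutaneous (SCAT) and interscapular brown (BAT), beside liver, kidney, cortex and skeletal muscle. All tissues were from C57BL/6 mice of wild-type (wt) genotype, 36 weeks old and on the diet labelled NCD. Total RNA was depleted of rRNA, made into strand-specific libraries and sequenced with paired reads of 101 bases. Each tissue has 1 library from a number of animals that the labels do not give, so no difference between tissues has a replicate check and no test was made, and with FPKM alone the depth of each library is unknown.

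Ribosomal proteins are needed in near-equal numbers, and their mRNAs are among the most abundant of a cell. Many of these mRNAs start with a run of pyrimidines, the terminal oligopyrimidine tract, through which mTOR signaling and the RNA-binding protein LARP1 control their translation, and many of the genes carry small nucleolar RNAs in their introns. A few proteins have paralogs made in particular tissues, of which Rpl3l of striated muscle is the best known. In the annotation, 29 of the 74 parent genes host a noncoding RNA. The 74 genes lie on 19 chromosomes, with 4 of them on the X chromosome (Rpl10, Rpl36a, Rpl39 and Rps4x).

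The start sites show what the genes share in sequence. RefSeq promoters (GRCm38.p6) were matched for 55 of the 74 parents, with 65 annotated starts. At 22 of these starts (33.8%), an unbroken run of at least 8 C or T overlapped the stretch from 5 bases before to 5 bases after the start, compared with 9.38% of all 32851 RefSeq starts. The motif CCGGAAG, on either strand of the 300 bases of the promoter, was found at 36.9% of the parents' starts and 8.86% of all starts, and AAGATGG at 16.9% and 6.34%. The motifs end and begin with the same letters, AAG, so a single stretch can hold both, and a match is a description of the letters only. Shown are the 5 parents with the longest run and, for contrast, the paralogs Rpl22l1, Rps27l and Rpl3l with the parents that had a promoter entry. Each line gives 15 bases before the start and 15 bases from it, 5′ to 3′ on the gene's strand, with the part of the run that lies in these 30 bases in capitals. The runs of Rpl27a and Rpl34 go on beyond the window.
Rpl7a (chr2:26910792-26910821, plus strand): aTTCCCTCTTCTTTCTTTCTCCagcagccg
Rpl27a (chr7:109519180-109519209, plus strand): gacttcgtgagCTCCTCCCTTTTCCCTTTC
Rpl34 (chr3:130730323-130730352, minus strand): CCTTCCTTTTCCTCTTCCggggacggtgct
Rpl35 (chr2:39005117-39005146, minus strand): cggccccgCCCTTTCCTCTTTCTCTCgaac
Rpl15 (chr14:18270972-18271001, minus strand): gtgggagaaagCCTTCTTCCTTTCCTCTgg
Rps27 (chr3:90213634-90213663, minus strand): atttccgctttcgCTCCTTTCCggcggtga
Rps27l (chr9:66946071-66946100, plus strand): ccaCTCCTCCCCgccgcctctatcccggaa
Rpl22 (chr4:152325711-152325740, plus strand): ttcgccctgggaaaagCaatagctggccga
Rpl22l1 (chr3:28805493-28805522, plus strand): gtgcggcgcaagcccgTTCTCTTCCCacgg
Rpl3l (chr17:24727811-24727840, plus strand): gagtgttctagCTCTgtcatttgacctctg
The run was 21 bases long at Rpl7a and 20 at Rpl27a and Rpl34, 9 at both Rps27 and Rps27l, 10 at Rpl22l1, and 4 at Rpl3l. The start shown for Rpl22 is the RefSeq start nearest to the deposited locus, and its longest run was 1 base. Other RefSeq starts had runs of 6 bases at Rpl34 and of 4 at Rps27l, Rpl22 and Rpl3l. For Rpl34 and Rps27l, the start with the longer run is thus shown, and for Rpl22 the one with the shorter.

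The tissue labels were first set against marker genes. The markers of hepatocytes (Apoa1 and Ttr), kidney tubule (Umod, Slc12a1 and Slc34a1), neurons, muscle fibres (Ckm alone) and brown adipocytes that had a usable value in their own tissue were highest there, with Ucp1, the uncoupling protein of brown fat, at 6552 FPKM in BAT, and the sum of 3 neuronal markers (Snap25, Syt1 and Rbfox3) at 285.7 FPKM in cortex and at most 0.882 elsewhere. SCAT also held 5 of 5 lymphocyte markers at 1 FPKM or more, which summed to 136.6 FPKM against 0.287 to 4.38 in the other tissues, and the pancreatic acinar markers Ctrb1 and Cpa1 at a sum of 65.8. VAT held the epididymal genes Crisp1 and Lcn5 at a sum of 2505. In BAT, the muscle genes Ckm and Myh4 summed to 253.5 FPKM, and Alb, the main plasma protein made by liver, was at 252.7 in VAT. Acta1 in all tissues, Alb and Ckm in liver and Myh4 in muscle had no usable value and are not in the sums.

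The cytosolic ribosomal protein mRNAs were lowest in cortex and highest in SCAT and skeletal muscle. The summed FPKM of the 84 genes was 10034 in cortex, 14417 in kidney, 15450 in VAT, 15947 in liver, 16987 in BAT, 21560 in muscle and 21650 in SCAT. The lowest and the highest tissue thus differed by 2.16-fold. To compare tissues gene by gene, the log2(FPKM + 0.1) of a gene in a tissue was set against the median of its values in the other 6 tissues, a difference in which every library serves as a control for the others, and which understates the change of low genes. The median difference over the 81 genes was -0.84 in cortex, -0.15 in kidney, -0.10 in VAT, -0.02 in liver, 0.12 in BAT, 0.40 in SCAT and 0.48 in muscle. In bulk tissue, fewer cells of a type and less RNA per cell cannot be told apart.

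Part of these values depends on how the libraries are scaled. Scaling by the median ratio over names expressed in all tissues shifted the log2 values by between -0.38 in muscle and 0.49 in SCAT. After this scaling, the median difference of the members was -0.58 in cortex, 0.92 in SCAT and 0.09 in muscle, while it turned positive in VAT (0.44) and negative in BAT (-0.23). Set against the median of all 19122 gene names compared, which moved as well, the members stood at -0.75 in cortex as deposited and -0.59 after scaling, and at 0.66 and 0.85 in SCAT. The same relative value was 0.28 and 0.23 in muscle, 0.02 and 0.22 in VAT, -0.03 and -0.11 in BAT, -0.06 and -0.04 in liver, and -0.20 and -0.19 in kidney. The low level in cortex and the high level in SCAT and muscle, relative to other genes, therefore had the same sign under both scalings. Among names that reached 10 FPKM in a tissue, the relative value was -0.53 in cortex, 0.99 in SCAT and 0.05 in muscle, so that the one in muscle rested on the low genes in the comparison. Levels of single genes are given as deposited unless called scaled.

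**Figure D1:**
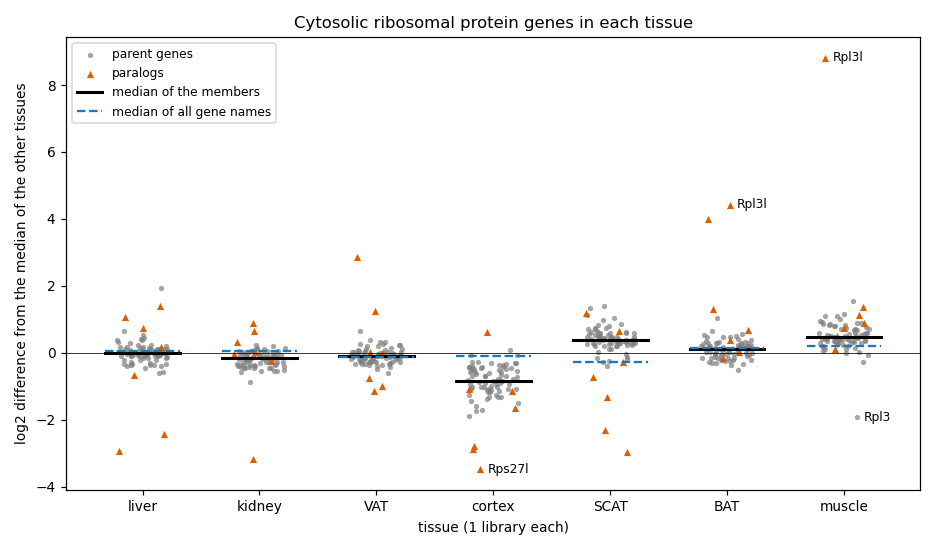
Log2 difference of each of the 81 cytosolic ribosomal protein genes from the median of the other 6 tissues (y axis), by tissue (x axis), with 1 library per tissue and FPKM as deposited. Grey points are parent genes, orange triangles paralogs, black lines the median of the members and dashed blue lines the median of all gene names, and after median-ratio scaling the member medians of VAT and BAT and the medians of all names in every tissue change sign. The cortex points lie mostly below 0 (median -0.84), and Rpl3l in muscle stands at 8.81.

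In cortex, 71 of the 81 genes had their lowest FPKM, which 23.2% of all names did, and 31 were at least 2-fold lower than in the median of the other tissues, compared with 23.8% of all names. No member was 2-fold higher there (23.7% of all names). After median-ratio scaling, 49 of the 81 were lowest in cortex (20.7% of all names) and 17 were 2-fold lower (21.1% of all names), a share at the level of the background. Among the parents, Rpl23 was at 83.1 FPKM in cortex against 282.2 to 392.5 elsewhere, a log2 difference of -1.90. Rplp0, the protein on which the P stalk of the large subunit is built, was at 53.1 against 151 to 340 FPKM, a difference of -1.73. Rps15 (189 FPKM), Rps21 (364) and Rpl3 (139) of cortex lay within the range of the other tissues, with differences of -0.06, -0.07 and 0.09.

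SCAT and muscle were the highest tissue for 30 and 40 of the 81 genes, which 9.92% and 23.3% of all names were. These counts depended on the scaling: after median-ratio scaling, SCAT was the highest tissue for 69 genes (17.3% of all names) and muscle for 3 (14.9%). At the 2-fold limit, 5 members were higher and 3 lower in SCAT (12.3% and 21.0% of all names), and 35 and 2 after scaling (19.3% and 11.0%). In muscle, 8 were higher and 1 lower (25.6% and 13.2%), and 1 and 1 after scaling (16.3% and 21.2%), so that the deposited count of 8 was below the share of all names. In SCAT, the highest differences were those of Rps27 (1.40), Rps24 (1.33), the paralog Rpl39l (1.18), Rpl12 (1.14) and Rpl17 (1.03). Rpl39l was below 1 FPKM in SCAT (0.777) and in muscle (0.888), so its place among the members higher there is given as a value only. Rps24, a small subunit protein needed to process the rRNA precursor, was at 701 FPKM in SCAT, 515 in muscle, and 226 to 323 in the other tissues. The 5 lymphocyte markers, Ms4a1 (50.6 FPKM), Cd79b (40.7), Cd79a (35.6), Cd3d (6.31) and Cd3e, were highest in SCAT. The ribosomal protein genes were highest there by summed FPKM and by their median difference after scaling. By their median difference as deposited, they were highest in muscle. The part of lymphocytes in these values was not tested.

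In liver, kidney, VAT and BAT few members passed the 2-fold limit. By count, 3 members were higher and 2 lower in liver (19.7% and 16.4% of all names), 0 and 1 in kidney (18.5% and 10.1%), 2 and 1 in VAT (16.0% and 10.6%) and 4 and 0 in BAT (19.7% and 9.24%). The members higher were Rps27l, Rpl7l1 and the parent Rps16 in liver, Rpl3l and Rpl39l in VAT, and Rpl3l, Rpl7l1, Rpl39l and the parent Rplp2 in BAT. Rpl39l reached 1 FPKM only in BAT, so its place there was set by the minimum for entering the comparison. Its difference in VAT rests on 0.812 FPKM.

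**Figure D2:**
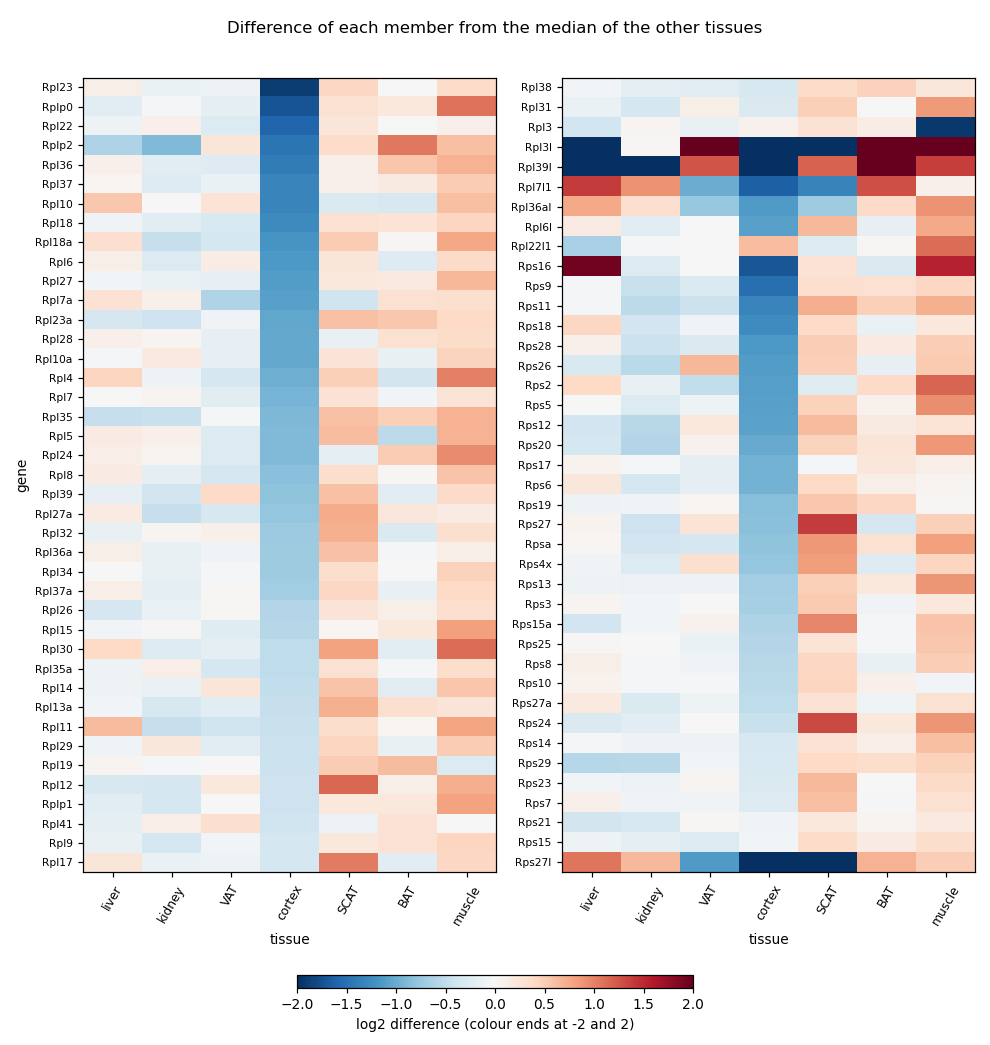
Log2 difference of each of the 81 genes from the median of the other 6 tissues (colour, ending at -2 and 2), with tissues as columns. Rows run from the large subunit parents to their paralogs, the small subunit parents and Rps27l, each group sorted by the value in cortex. FPKM are as deposited, and after median-ratio scaling the medians of VAT and BAT change sign. Cortex is blue for nearly all genes, while Rpl3l, Rpl39l, Rps27l, Rpl7l1, Rps16 and Rpl3 depart from the column they stand in.

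The members varied less between tissues than most genes. The range of a member over the 7 tissues was 1.37 (median, log2), compared with 3.09 for all names, 2.92 for the 572 names with a median of at least 50 FPKM, 2.64 for 78 mitochondrial ribosomal protein genes and 2.23 for 17 genes of the proteasome core. It was nearer to that of the members for 22 ribosome assembly factors (1.90) and for 16 other mRNAs with a terminal oligopyrimidine tract (1.58). The lowest and the highest tissue lay within 2-fold for 15 of the 81 members, which was so for 5.56% of all names, and for 7 after scaling (6.68% of all names). To describe composition apart from level, each value was set against the median of the members in the same library. By this measure Rpl34 had the smallest range over tissues (0.16), followed by Rpl8 (0.27) and Rps25 (0.29). Rpl34 was at 131 FPKM in cortex, 193 in kidney, 211 in VAT, 213 in liver, 214 in BAT, 272 in SCAT and 292 in muscle. The widest ranges were those of Rpl3l (9.75), Rpl39l (5.77), Rpl3 (3.19), Rps27l (3.17), Rps16 (2.67), Rpl7l1 (2.46), Rpl22l1 (2.02), Rpl36al (1.45), Rplp2 (1.44) and Rplp0 (1.43). The range of Rpl39l follows from its entry through BAT alone and is given as a value only.

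The spread of the members around their own median (SD of the differences) was 1.02 in muscle, 0.71 in BAT, 0.63 in SCAT, 0.62 in cortex, 0.58 in liver, 0.45 in VAT and 0.42 in kidney. Without paralogs, it was 0.42 in both muscle and cortex, 0.33 in both liver and SCAT, 0.27 in BAT and 0.22 in both kidney and VAT. The small subunit parents were above the large subunit parents in every tissue, with a difference of medians (log2) of 0.11 in muscle, 0.15 in liver, 0.18 in kidney, 0.23 in VAT, 0.24 in BAT, 0.36 in SCAT and 0.49 in cortex. In cortex, this was a median of 129 FPKM for the small and 91.9 for the large subunit. Set against the other tissues gene by gene, the subunits were alike in cortex, with a median difference of -0.79 for both, and in kidney the small subunit stood lower (-0.27) than the large (-0.14).

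The pair whose ratio varied most between tissues was Rpl3 and Rpl3l, and the paralog was the higher of the pair in skeletal muscle. Rpl3 is a large subunit protein that reaches toward the peptidyl transferase center, and Rpl3l is its paralog of striated muscle. Rpl3l (chr17:24727820-24736143, plus strand, deposited locus) was at 121 FPKM in muscle, 5.70 in BAT, 1.87 in VAT, 0.427 in kidney, 0.0377 in cortex, 0.0340 in liver and 0.0296 in SCAT. Rpl3 (chr15:80075579-80121299, minus strand) was at 36.1 FPKM in muscle, 106 in liver, 124 in VAT, 137 in kidney, 139 in cortex, 144 in BAT and 158 in SCAT. Rpl3l thus made up 77.1% of the pair in muscle, 3.81% in BAT, 1.48% in VAT, and no more than 0.312% elsewhere. Of the 7 tissues, muscle was the one in which the paralog exceeded its parent. The sum of both ranged from 106 to 158 FPKM, a 1.49-fold range, while Rpl3 alone ranged 4.39-fold. After median-ratio scaling, the sum ranged 2.23-fold, from 99.6 in liver to 222.1 in SCAT (scaled FPKM), and Rpl3 alone 8.03-fold. The log2 difference of Rpl3 in muscle was -1.93, and -2.39 after scaling, and Rpl3 was the only member 2-fold lower there.

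Rpl3l in BAT was 4.70% of its level in muscle, and the creatine kinase Ckm in BAT was 1.93% of its level in muscle, which for VAT were 1.54% and 0.115%. The part of muscle RNA in these values was not tested. The coding sequences of Rpl3 and Rpl3l were identical at 74.1% of aligned bases, with no shared stretch longer than 22 bases, below the read length. Rpl3 itself has near-copies: 79.2% of the 101-base stretches of its transcript also occur in transcripts of 7 other annotated genes. The pseudogene name Rpl3-ps2 was likewise lowest in muscle, at 7.49 FPKM against 23.7 to 40.4 elsewhere.

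In cortex, Rpl22l1 exceeded Rpl22. Both bind RNA on the outer face of the large subunit. Rpl22 (chr4:152325742-152336007, plus strand) was at 59.6 FPKM in cortex, 148 in VAT, 168 in liver, 176 in BAT, 184 in kidney, 185 in muscle and 202 in SCAT. Rpl22l1 (chr3:28805436-28813985, plus strand) was at 43.9 FPKM in liver, 56.7 in SCAT, 67.3 in kidney, 68.8 in VAT, 69.0 in BAT, 104 in cortex and 148 in muscle. Its share of the pair was 63.5% in cortex and 44.4% in muscle, and 20.7% to 31.7% in the other tissues. Of the 101-base stretches of the Rpl22l1 transcript, 50.4% also occur in 2 other annotated genes, and none of those of Rpl22 do, so the level of Rpl22l1 is uncertain. In cortex Rpl22 was among the lowest members (-1.59), and Rpl22l1 had the highest difference of the 81 (0.61). After median-ratio scaling these values were -1.30 and 0.72.

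By the composition measure, Rps27l had the widest range after Rpl3l, Rpl39l and Rpl3. Rps27 and Rps27l are zinc finger proteins of the small subunit. Rps27l (chr9:66946066-66950961, plus strand) was at 235 FPKM in liver, 181 in BAT, 175 in kidney, 163 in muscle, 76.8 in VAT, 33.8 in SCAT and 15.1 in cortex. Its parent Rps27 (chr3:90212522-90213651, minus strand) was at 2257 FPKM in SCAT, 1191 in muscle, 1028 in VAT, 939 in liver, 778 in BAT, 737 in kidney and 550 in cortex. The share of Rps27l was 20.0% in liver, 19.2% in kidney, 18.8% in BAT and 12.1% in muscle, and 6.96% in VAT, 2.67% in cortex and 1.48% in SCAT. Rps27 took 10.4% of the summed FPKM of all members in SCAT and 4.58% to 6.65% elsewhere. Of the 101-base stretches of its transcript, 98.4% also occur in 2 other annotated genes, so the level of Rps27 is uncertain.

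**Figure D3:**
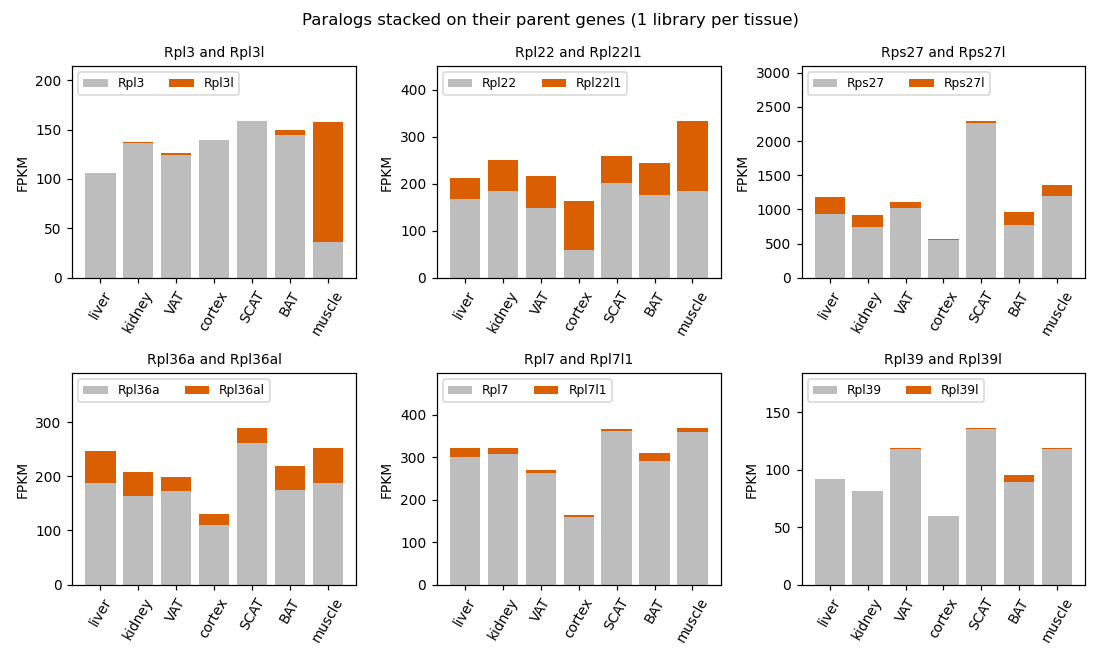
FPKM (y axis, linear from 0) of 6 parent genes (grey) with their paralogs stacked on them (orange) in the 7 tissues (x axis), with 1 library per tissue and FPKM as deposited. Rpl3l exceeds Rpl3 only in muscle (77.1% of the pair), and Rpl22l1 exceeds Rpl22 only in cortex (63.5%).

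The other paralogs were minor parts of their pairs. Rpl36al, whose locus also carries the names of its neighbours, made up 9.46% of its pair with Rpl36a in SCAT and 25.6% in muscle, with the other tissues between. Of the 101-base stretches of the Rpl36a transcript, 83.6% also occur in 2 other annotated genes, so this share is uncertain. Rpl7l1, a nucleolar relative of Rpl7, was at 20.2 FPKM in liver, 18.7 in BAT, 14.1 in kidney, 9.77 in muscle, 5.83 in VAT, 4.61 in SCAT and 3.71 in cortex, or 1.26% to 6.28% of its pair. As deposited, Rps27l, Rpl7l1 and Rpl36al were each higher in liver, kidney, BAT and muscle than in VAT, SCAT and cortex. After scaling this held for Rps27l alone, since Rpl7l1 was then higher in VAT than in muscle (differences of -0.38 and -0.46) and Rpl36al higher in SCAT than in BAT (-0.07 and -0.11). Rpl6l was 11.7% to 15.7% of its pair with Rpl6, but its sequence is 98.7% identical to that of Rpl6 with a shared stretch of 354 bases, and the locus used lies on the strand opposite to its annotation.

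Rpl39l, a paralog of Rpl39 known from testis, was at 6.02 FPKM in BAT, 0.888 in muscle, 0.812 in VAT, 0.777 in SCAT, 0.0652 in liver and 0.0303 in cortex, and was listed at 0 in kidney. It passed the minimum of 1 FPKM only through BAT. Rpl3l in muscle and Rpl39l in BAT were enriched, that is at least 4-fold above every other tissue, as 23.0% of all names were in a tissue, and nothing is read from this for Rpl39l. This locus, too, lies opposite to the annotated strand of Rpl39l. The locus on the annotated strand was at 3.13 FPKM in BAT and at most 0.383 elsewhere. Rpl10l, known as the counterpart of Rpl10 in male germ cells, was listed at 0 in 5 tissues, at 0.310 FPKM in VAT and at 0.106 in muscle, at a locus opposite to its annotated strand, while the locus on the annotated strand was listed at 0 in every tissue. Rps4l was between 0.0565 and 0.799 FPKM, and Rps12l1 was listed at 0 in every tissue.

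By role, the proteins of the P stalk, which recruits the elongation factors to the ribosome, were each lowest in cortex as deposited. Rplp0 was at 340 FPKM in muscle, 197 in SCAT, 186 in BAT, 167 in kidney, 154 in VAT, 151 in liver and 53.1 in cortex. Rplp1 was at 513 FPKM in muscle and 242 to 341 in the other tissues. Rplp2, which pairs with Rplp1 on the stalk, was at 336 FPKM in BAT, 247 in muscle, 210 in SCAT, 198 in VAT, 133 in liver, 110 in kidney and 74.3 in cortex. As deposited, Rplp0 and Rplp1 were thus highest in muscle and Rplp2 in BAT (difference 1.05). After median-ratio scaling all 3 were highest in SCAT, with Rplp0 at 276 against 261 in muscle, Rplp1 at 475 against 394 in muscle, and Rplp2 at 294 against 278 in BAT (scaled FPKM).

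Rpl5 and Rpl11, which bind the 5S rRNA and, outside the ribosome, the ubiquitin ligase MDM2, had different orders. Rpl11 was at 134 FPKM in muscle, 120 in liver, 98.6 in SCAT, 85.2 in BAT, 69.7 in VAT, 66.9 in cortex and 66.2 in kidney. Rpl5 was at 261 FPKM in muscle, 247 in SCAT, 181 in liver, 176 in kidney, 147 in VAT, 124 in BAT and 96.2 in cortex. In liver, Rpl11 had a difference of 0.64 and Rpl5 of 0.17, and in BAT these were 0.04 and -0.52. After scaling both genes were highest in SCAT, and the differences in BAT were -0.47 for Rpl11 and -0.83 for Rpl5. Over most of the length of Rpl5 (91.1% of 101-base stretches), the same sequence is found in 6 other annotated genes.

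Rps27a, a small subunit protein made as a fusion with ubiquitin, ranged from 122 FPKM in cortex to 201 in muscle as deposited, and after scaling from 135 in BAT to 279 in SCAT. Some components of the ribosome have names that the rule does not reach, and 3 of them were compared. Rps3a1 ranged from 139.7 FPKM in cortex to 313 in SCAT, Rack1, a scaffold on the small subunit, from 71.8 in cortex to 332 in muscle, and Fau from 118 in cortex to 229 in SCAT, with 141 in muscle. As deposited all 3 were lowest in cortex.

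Other members of known roles were each lowest in cortex as deposited, while after scaling Rpl13a was lowest in kidney, and Rpl38, Rpl41 and Rpl19 in muscle. Rpsa, also known as a laminin receptor, ranged from 89.4 FPKM in cortex to 247 in SCAT, and Rps6, the substrate of the S6 kinases, from 56.2 in cortex to 133 in SCAT. Rps3 ranged from 136 in cortex to 301 in SCAT, and Rpl13a from 258 in cortex to 518 in SCAT. Rpl10 was at 137 FPKM in cortex and 456 in muscle, with 438 in liver and 281 in SCAT, and its difference in SCAT was -0.28 as deposited and 0.25 after scaling. Of the 101-base stretches of their transcripts, 84.4% for Rpl10 and 83.5% for Rps6 also occur in other annotated genes. Rpl38, known for its part in Hox mRNA translation, lay between 235 FPKM in cortex and 367 in BAT. Rpl41 ranged from 134 to 207 FPKM, with its locus on the strand opposite to the annotation. Rpl19 was the parent with the lowest difference in muscle after Rpl3 (-0.28).

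The 3 parents with the highest median FPKM were Rps27 (939), Rps29 (442) and Rps21 (382). Rps29 was at 326 FPKM in liver, 331 in kidney, 394 in cortex, 442 in VAT, 534 in BAT, 548 in SCAT and 571 in muscle, an order in which cortex was not lowest. The 3 lowest parents were Rps16 (1.07), Rpl29 (42.2) and Rpl35 (82.2). Rps16 was at 4.06 FPKM in liver, 3.07 in muscle, 1.24 in SCAT, 1.07 in VAT, 0.929 in kidney, 0.918 in BAT and 0.281 in cortex. This is below every other parent in every tissue, and the other locus of that name, on the opposite strand, was at 0.158 to 0.672 FPKM. Of the 101-base stretches of its transcript, 33.8% also occur in 2 other annotated genes.

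The mitochondrial ribosomal proteins, which serve translation inside mitochondria, ordered the tissues differently. The 78 genes had a median log2 difference of 1.44 in BAT and 1.14 in muscle, where 65 and 43 of them were at least 2-fold higher (19.7% and 25.6% of all names), and of -1.45 in SCAT and -1.03 in VAT, where 65 and 41 were at least 2-fold lower (21.0% and 10.6%). After scaling, the medians were 1.11 in BAT, 0.69 in muscle, -0.91 in SCAT and -0.53 in VAT. The counts were then 47 higher in BAT and 20 in muscle (13.1% and 16.3% of all names), and 30 lower in SCAT and 7 in VAT (11.0% and 3.63%). The proteasome core was similar, with -1.31 in SCAT, -0.98 in VAT, 0.82 in BAT and 0.93 in muscle, and -0.76, -0.48, 0.47 and 0.50 after scaling. In SCAT, 14 of its 17 genes were lowest (3789 of the 19122 names), and 11 after scaling (1978 of the 19122 names). Psmb8 (2.38), Psmb9 (2.04) and Psmb10 (0.66), the catalytic subunits of the immunoproteasome, were highest there. That library also held the lymphocyte markers, whose part in these values was not tested. SCAT was thus the tissue in which cytosolic ribosomal proteins stood highest relative to all names (0.66) and both other lists lowest (-1.19 and -1.05). In cortex, all 3 lists were low, with median differences of -0.84, -0.66 and -0.74, or -0.75, -0.58 and -0.66 relative to all names.

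**Figure D4:**
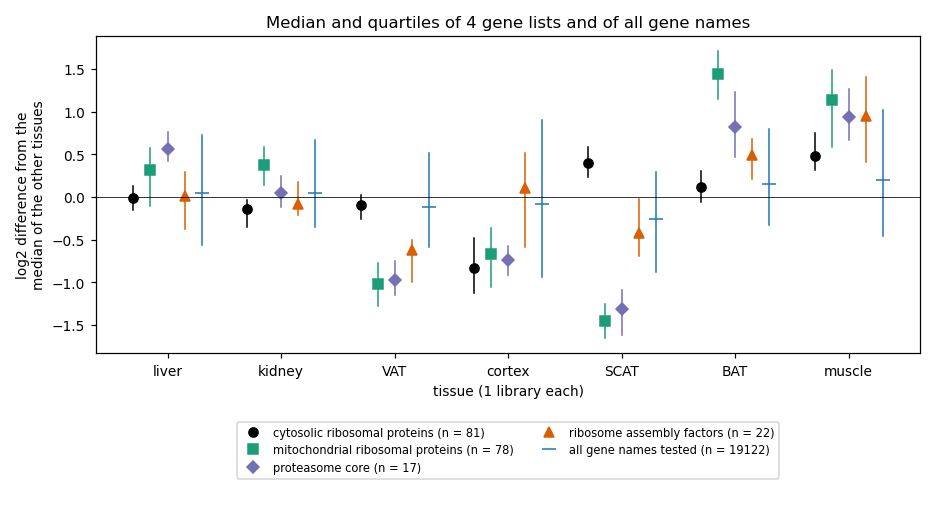
Median (symbols) and quartiles (bars) of the log2 difference from the median of the other 6 tissues (y axis) for 4 gene lists and all gene names, by tissue (x axis), FPKM as deposited. Cytosolic ribosomal proteins are at 0.40 in SCAT and 0.12 in BAT, where mitochondrial ribosomal proteins are at -1.45 and 1.44, and after median-ratio scaling the members change sign in VAT and BAT, the proteasome core in kidney, the assembly factors in liver and SCAT, and all gene names in every tissue.

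Among the tissues, the median difference of the factors that assemble ribosomes was highest in muscle. Of 22 genes compared, such as the nucleolar proteins Ncl, Nop56 and Dkc1, 14 had their highest FPKM there (23.3% of all names) and 10 were at least 2-fold higher in muscle (25.6% of all names), with a median of 0.95. After scaling, 8 were highest there (14.9% of all names) and 4 of the 22 were 2-fold higher, a share near the 16.3% of all names, with a median of 0.54. In cortex, their median was 0.10, and 0.26 after scaling, and the genes were spread, with 10 of the 22 below 0 and 7 lowest there (23.2% of all names), among them Dkc1 (-1.31) and Pes1 (-1.21). Nop56 was at 76.0 FPKM in BAT and 5.06 to 18.9 elsewhere. Among other mRNAs with a terminal oligopyrimidine tract, the translation elongation factor Eef1a1 was at 222 FPKM in muscle against 497 to 1657 in the other tissues, and Eef2 was at 277 in muscle, 224 in liver, and 60.3 in cortex. Tpt1 was at 1782 FPKM in muscle, 279 in cortex, and 685 to 918 elsewhere. Pabpc1, the poly(A)-binding protein, was at 87.7 FPKM in liver and 14.0 to 32.8 elsewhere. Eef1a2, the paralog that replaces Eef1a1 in adult muscle, was not analysed here because it had no usable locus.

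Length and base composition were set against the differences. Over the 74 parents, the correlation of annotated transcript length (log2) with the difference in a tissue lay between -0.14 in cortex and 0.16 in SCAT (Pearson's r), and between -0.15 in BAT and 0.23 in muscle (Spearman's rho). With the GC content of the transcript, r was 0.38 and rho 0.40 in BAT, and in the other tissues r lay between -0.20 in SCAT and 0.02 in cortex. With the share of 101-base stretches found in other genes, r lay between -0.14 in muscle and 0.15 in liver, where rho was 0.28. In each tissue the points share 1 library, with its fragment length and base composition. Parents with a pyrimidine run of at least 8 bases at a start (22) and those without (33) had medians of -0.81 and -0.80 in cortex, 0.42 and 0.36 in SCAT, 0.43 and 0.44 in muscle, and 0.21 and 0.04 in BAT. Between transcripts of the same gene family, reads can be shared: 70 of the 74 parents had at least 1 stretch of 101 bases in common with another annotated gene, with a median of 34.8% of their stretches and over 90% for Rps27 and Rpl5. The authors' treatment of such reads is not given in the sources used here.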

How the data were processed

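RNA-Seq of 7 mouse tissues was analysed, with 1 library per tissue. The authors removed rRNA reads with Bowtie2 (2.2.9), aligned to GRCm38 with STAR (2.6.0c) and assembled and compared transcripts with Cufflinks (2.2.1) and Cuffdiff, per the labels and the study's methods. The authors deposited Cuffdiff's table of 94339 loci in 21 pairwise comparisons, with values in FPKM. Its log2 fold changes, test statistics, p-values and q-values are the authors' own comparisons and were not used. The settings for library type and scaling are not given in the sources used here.

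Loci with a failed estimate (151) were dropped, and zeros with the status of too few data were treated as missing. A name with several loci took the locus with the highest FPKM. Strand was read from the order of loci within a chromosome, by which 80 of 84 members lie on the annotated strand. Names with at least 1 FPKM in any tissue were compared as log2(FPKM + 0.1), with no test. GENCODE M21 gave positions and transcripts (principal isoform), and RefSeq (GRCm38.p6) the promoters. Among several such isoforms, the one with the longest coding part was taken, and then the longest transcript. Transcript length was used where protein length had been planned, since no protein table was used here. The code was tested on simulated data. Alternatives covered pseudocount, scaling, minimum FPKM, fold, treatment of loci and paralogs. Named are all paralogs with parents, the 10 widest and 3 narrowest ranges of composition, the 3 highest and lowest parents, members of set roles, the components outside the rule and the marker genes. Rpl23, Rps15, Rps24, Rpl12, Rpl17, Rpl19, Nop56, the 3 pseudogenes and the promoters with the longest runs were named after their values were seen. Some genes of the lists are not reported here. Members and lists were chosen with earlier results of these data known. Calculations ran in Python 3.11.15 (NumPy 2.4.6, pandas 2.3.3, SciPy 1.17.1), and plots were drawn with matplotlib 3.10.9.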

Additional observations from a re-analysis of the deposited data

How the results depend on the processing

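No paired analysis was possible because each tissue has 1 library, and for the same reason no library could be left out within a tissue. Of 259 values recomputed for the main results, 223 stayed within 1.5-fold of the reported value and 36 did not. For log2 differences the limit applies to the fold they stand for, so changes of sign can lie within it. The 223 include the median differences under median-ratio scaling of VAT and BAT, which changed sign, and of SCAT (0.40 and 0.92). The limit of 1.5-fold stands in for a replicate spread, which 1 library per tissue cannot give. Median-ratio scaling turned the median difference of the members in VAT (0.44) and BAT (-0.23), neither of which passed 2-fold. With parents alone, 1 member was 2-fold higher in liver, 0 in VAT, 1 in BAT and 5 in muscle, 0 were lower in liver, kidney, VAT and SCAT, and 0 were enriched (shares of all names as reported). With a fold of 1.5, the counts higher were 5 in liver, 2 in kidney, 1 in cortex, 19 in SCAT and 30 in muscle (28.8%, 27.3%, 30.3%, 18.0% and 36.8% of all names), and the counts lower 4 in liver, 3 in kidney, 4 in VAT and 53 in cortex (24.3%, 17.3%, 25.3% and 34.1%). With median-ratio scaling, 35 were higher in SCAT and 1 in muscle (19.3% and 16.3% of all names), and 2 were lower in kidney, 0 in VAT and 17 in cortex (11.6%, 3.63% and 21.1%). A pseudocount of 1 left 0 lower in liver and kidney, 1 higher in VAT and 1 enriched (6.53%, 4.04%, 8.15% and 15.4% of all names), and a pseudocount of 0.01 gave 2 lower in VAT (12.2%). From the interquartile range, the spread of the members was 0.21 in liver, 0.24 in kidney, 0.21 in VAT, 0.25 in SCAT, 0.27 in BAT and 0.33 in muscle. It was widest in cortex by this measure (0.47). With loci of a name summed, the share in liver was 0.0533% for Rpl3l and 0.182% for Rpl39l. With a minimum of 10 FPKM, the members stood 0.99 above all names in SCAT, 0.05 in muscle and -0.53 in cortex. The depth behind each value is unknown.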

Other observations

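The table lists 270 pseudogene names of these genes, of which 25 reached 1 FPKM and 12 reached 10 FPKM in a tissue. Rpl31-ps17 was at 772 FPKM in VAT, 1305 in SCAT, 1868 in kidney, 2190 in muscle, 2197 in liver, 2385 in BAT and 2687 in cortex, above every parent in 5 of the 7 tissues and highest in cortex. Rpl14-ps1 was at 139 FPKM in muscle and 41.0 to 77.9 elsewhere.

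A further locus under the same name was listed for 33 of the 84 members, nearly always on the other strand by the order of loci (32 of 33). Its FPKM as a percentage of that of the locus used, taken as the median over tissues, had a median of 3.56% over these members, was at least 10% for 9 of them and was highest for Rpl41 (52.0%). For Rpl3l in muscle, it was 11.4 FPKM beside 121.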
